A study of Rattus norvegicus with 2 samples.

Results

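The 8 genes described here encode the enzymes that make and use citrulline, the amino acid at the centre of the urea cycle. They were taken by symbol (Nags, Cps1, Otc, Oat, Ass1, Asl, Arg1 and Arg2), and all 8 were present among the 28116 symbols of the count matrices, each under 1 identifier. They were measured by droplet single-cell RNA-seq in fetal rat colon at E19.5, with a single library from the control fetuses and another from fetuses of obese mothers, the maternal obesity group. Fetuses of both groups carry the label WT, and the labels do not give the strain, the number or sex of the fetuses, or which stretch of colon was taken. Since neither group has a second library, the groups cannot be tested against each other, and the intervals below are exact 95% intervals that cover counting error only.

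In the intestine, citrulline is built in mitochondria. N-acetylglutamate synthase (Nags) makes the obligate activator of carbamoyl phosphate synthetase 1 (Cps1), and ornithine transcarbamylase (Otc) joins carbamoyl phosphate to ornithine, which ornithine aminotransferase (Oat) can supply from the glutamine and proline pathway. Argininosuccinate synthase (Ass1) and argininosuccinate lyase (Asl) turn citrulline into arginine in the cytosol, and the arginases (Arg1 in the cytosol, Arg2 in mitochondria) split arginine into ornithine and urea. Around birth the small intestinal epithelium carries the whole route and supplies arginine, whereas in adults it mainly exports citrulline. Nitric oxide synthases release citrulline from arginine, so Ass1 and Asl also serve to recycle it in cells that make nitric oxide.

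The control library held 8903 barcodes and 103013814 unique molecular identifiers (UMIs), and the maternal obesity library 9714 barcodes and 120811946 UMIs. After filtering on genes and mitochondrial UMIs and removal of called doublets, 6819 and 7102 cells remained. Scrublet called 0.872% and 1.85% of kept barcodes as doublets, below the 7.12% and 7.77% expected. Haemoglobin genes took 11.5% and 20.6% of all UMIs, and 130 barcode sequences occurred in both libraries. Epithelial-like cells numbered 2340 in control and 1262 in maternal obesity, with median UMIs of 17278 and 24628. They were clustered again without the 8 enzymes into sub-clusters written E0 to E16, of which E1, E9, E12 and E16 were set aside as mixed with other cell types. Levels are in CPM, the UMIs of a gene over all UMIs of its class and library on the usual CPM scale. CPM are not per transcript length, so levels are compared between cells and libraries but not between genes.

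Epithelial-like cells of both libraries carried intestinal genes. The level of Cdx2, a defining factor of intestinal epithelium, was 185 CPM in control against 240 CPM. They differed in genes that mark position along the gut, and this touches every enzyme value below. The 8 measured posterior HOX genes, which mark the hindgut end, summed to 160 CPM in control epithelial-like cells (interval 156 to 163) and to 25.7 CPM in maternal obesity (24.2 to 27.4), and each of the 8 was at least 1.5-fold lower. In fibroblast-like cells the same sum was 118 CPM in control (104 to 133) and 110 CPM in maternal obesity (103 to 118). Sub-clusters fell into 2 kinds by this sum. In 7 of them (E3, E4, E5, E6, E7, E8 and E10) it stayed under 20 CPM in both libraries, a limit chosen after the values were seen, and these held 49.5% of control (47.4 to 51.5, 1158 cells) and 88.3% of maternal obesity epithelial-like cells (86.4 to 90.0, 1114 cells). Haemoglobin genes, which mark red blood cell RNA, summed to 226 CPM in epithelial-like cells of control and 1148 CPM in those of maternal obesity, with 8 of 8 measured genes at least 1.5-fold higher. The part of position along the gut and of red cell RNA in the differences between the libraries was not tested, and since each group is 1 library, the group and the library cannot be told apart.

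The sequences upstream of Cps1, Otc and Oat are shown because these 3 genes were at least 1.5-fold higher in maternal obesity both over all epithelial-like cells and within the low-HOX sub-clusters. Promoters of 6 of the 8 members were matched in the RefSeq table of assembly GRCr8, and Arg1 and Arg2 were not matched. Each line gives the 250 bases before the annotated start, 5′ to 3′ along the gene, at chr9:76063613-76063862 (plus strand), chrX:15202474-15202723 (minus strand) and chr1:196797755-196798004 (minus strand). Capitals mark matches on either strand to the HNF4 letters CAAAGNNCA, the GATA letters AGATAA, the C/EBP letters TTNNGNAA or the CDX letters TTTATNG.
Cps1: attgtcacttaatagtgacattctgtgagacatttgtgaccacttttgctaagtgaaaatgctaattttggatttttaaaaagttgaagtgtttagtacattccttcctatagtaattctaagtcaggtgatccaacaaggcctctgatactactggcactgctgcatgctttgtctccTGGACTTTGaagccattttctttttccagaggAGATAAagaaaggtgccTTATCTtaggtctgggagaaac
Otc: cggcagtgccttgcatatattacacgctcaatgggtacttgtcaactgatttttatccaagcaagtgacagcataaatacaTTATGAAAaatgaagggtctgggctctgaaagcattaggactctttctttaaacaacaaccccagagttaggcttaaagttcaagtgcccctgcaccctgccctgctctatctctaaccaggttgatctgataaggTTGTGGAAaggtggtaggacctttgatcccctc
Oat: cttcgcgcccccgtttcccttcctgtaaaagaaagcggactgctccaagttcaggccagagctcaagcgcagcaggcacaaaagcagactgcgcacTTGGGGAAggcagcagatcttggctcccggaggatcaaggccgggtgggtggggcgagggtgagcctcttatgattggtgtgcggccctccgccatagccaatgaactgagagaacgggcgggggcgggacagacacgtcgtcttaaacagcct
Upstream of Cps1 there was an HNF4 match beginning 71 bases before the start on the opposite strand, and GATA matches beginning 39 bases before it on the same strand and 22 bases before it on the opposite strand. Among 33469 promoters, searched over 250 bases before and 50 bases after the start, 6.08% held the HNF4 letters and 11.6% the GATA letters. Otc had C/EBP matches beginning 169 and 33 bases before the start, and Oat had 1 beginning 154 bases before it, letters that 41.3% of promoters held. Ass1 had a CDX match beginning 60 bases before the start, letters held by 11.3% of promoters, which overlaps a match to the TATA box letters TATAAA on the opposite strand (14.2% of promoters). In the windows of Asl and Nags none of these letters were found, which says nothing about the factors. A match is a description of the letters and not a bound site.

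Over all epithelial-like cells, 4 of the 8 enzymes (Cps1, Otc, Oat and Nags) were at least 1.5-fold higher in maternal obesity and 1 (Arg2) at least 1.5-fold lower. Of 13334 genes with at least 20 UMIs over both libraries, 11.8% were at least 1.5-fold higher and 11.8% at least 1.5-fold lower. The 4 that were higher are the enzymes that lead up to citrulline. With totals taken without haemoglobin, ribosomal protein and mitochondrial genes the number higher was again 4. The median log2 ratio was 0.46 over the 8 enzymes and 0.04 over all genes.

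Cps1, which makes carbamoyl phosphate, differed most. Control epithelium gave 19 UMIs of it, or 0.387 CPM, and maternal obesity gave 653, or 17.0 CPM, a ratio of 44.1 (28.0 to 73.7). Cps1 was thus near 0 in control, and the most that any control cell held was 2 UMIs, against 30 in maternal obesity. Otc was at 15.9 CPM in control against 60.0 CPM, a ratio of 3.79 (3.49 to 4.11). Oat was at 223 and 479 CPM, a ratio of 2.15 (2.103 to 2.21). Nags was at 17.8 and 29.8 CPM, a ratio of 1.68 (1.53 to 1.83). All 4 were higher in the maternal obesity library, with intervals that stay above 1. Otc lies on the X chromosome and the sexes of the fetuses are not given. The 3 measured sex-linked genes (Eif2s3y, Kdm5d and Ddx3y) are Y-linked, and Xist was not among the symbols. Of these 3 genes, 0 were at least 1.5-fold higher and 0 lower, and they do not measure the X chromosome.

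**Figure D1:**
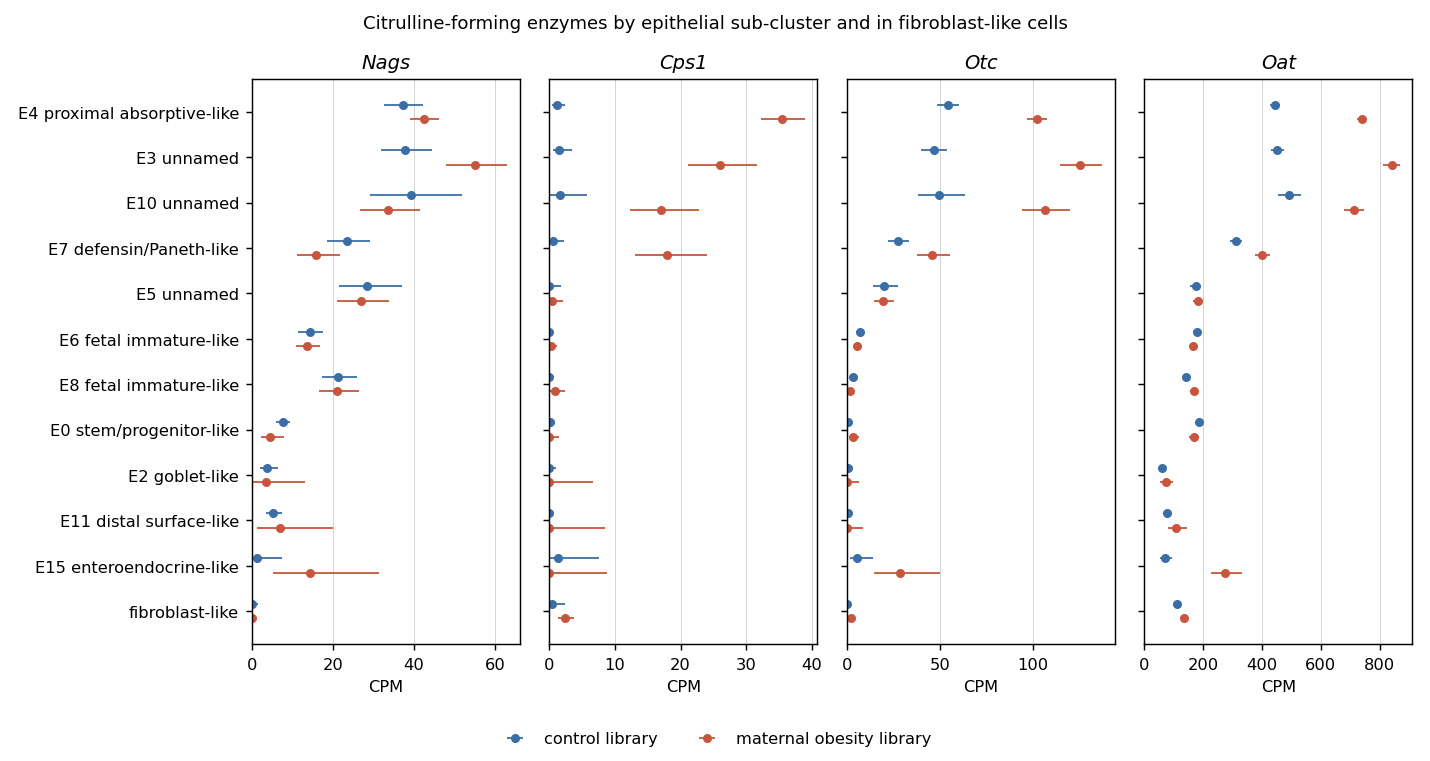
Levels in CPM (horizontal axes, linear) of Nags, Cps1, Otc and Oat in epithelial sub-clusters and fibroblast-like cells (rows), with 1 point per library and bars for the exact 95% Poisson interval. Cps1 in control stays at or under 1.57 CPM in every row shown, while in maternal obesity it reaches 35.5 CPM in E4, and Otc and Oat are highest in E3, E4 and E10 in both libraries.

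Among the sub-clusters kept, Otc, Oat and Nags were highest in E3, E4 and E10 in both libraries. Cps1 of maternal obesity was highest in E4 and E3, and about as high in the defensin/Paneth-like E7 as in E10. Sub-cluster E4, proximal absorptive-like and led by the brush border peptidase genes Enpep and Mep1b, the small intestinal chemokine gene Ccl25 and several histone genes, held 184 control and 290 maternal obesity cells. The unnamed sub-clusters E3 (193 and 200 cells, led by Mgst1 and Adgrg7) and E10 (64 and 105 cells, led by Mep1b and the bile acid transporter gene Slc10a2) also had the proximal absorptive list as their best marker list, but too few of its genes among their leading genes for a name. Of the enzymes with at least 20 UMIs, 3 of 7 were at least 1.5-fold higher in E4, where 13.2% of all genes were, 3 of 6 in E3 (19%) and 2 of 6 in E10 (16.7%). None was at least 1.5-fold lower in these 3 sub-clusters, where 5.4%, 4.11% and 5.57% of all genes were.

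Within E4, control gave 7 UMIs of Cps1, or 1.14 CPM, and maternal obesity 460, or 35.5 CPM, a ratio of 31.1 (14.98 to 77.8). In E3 it was at 1.56 and 26.0 CPM, a ratio of 16.7 (7.40 to 46.5). In E10 it was at 1.57 CPM (2 UMIs) and 17.0 CPM (43 UMIs), a ratio of 10.8 (2.81 to 91.8). The defensin/Paneth-like sub-cluster E7, whose leading genes are antimicrobial defensins, had 0.608 CPM (2 UMIs) and 17.9 CPM (44 UMIs), a ratio of 29.4 (7.68 to 251). E3, E4, E7 and E10 held all Cps1 UMIs of the maternal obesity epithelium apart from 1 UMI in E5, 2 in E6 and 3 in E8. Stem/progenitor-like cells (E0) had 1 Cps1 UMI in control and 0 in maternal obesity, and goblet-like cells (E2 and E14) had 0 in both.

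Otc was highest in E3, E4 and E10 in both libraries and, unlike Cps1, well above 0 in control. It was at 54.1 and 102 CPM in E4 (ratio 1.88, 1.67 to 2.13), 46.6 and 125 CPM in E3 (2.69, 2.26 to 3.21) and 49.6 and 106 CPM in E10 (2.15, 1.63 to 2.87). In E7 it was at 27.4 and 46.0 CPM (1.68, 1.26 to 2.24). In E5 it was at 20.01 and 19.53 CPM, and in the fetal immature epithelium-like sub-cluster E6 at 6.87 and 5.58 CPM, with no difference beyond counting error in either. The 4 sub-clusters with the most Otc in control were thus those with the higher Otc in maternal obesity beyond counting error among the 7 low-HOX ones.

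Oat was at 443 and 740 CPM in E4 (ratio 1.67, 1.60 to 1.74), 452 and 841 CPM in E3 (1.86, 1.75 to 1.97) and 493 and 713 CPM in E10 (1.44, 1.32 to 1.58). In E5 it was at 174 and 183 CPM and in E0 at 186 and 169 CPM. In enteroendocrine-like cells (E15) it was at 70.6 CPM (52 UMIs) and 276 CPM (115 UMIs), a ratio of 3.91 (2.79 to 5.53), but 1 of the 18 maternal obesity cells held 62 of the 115 UMIs (53.9%). The interval for Oat also stayed above 1 in E7 (1.29, 1.18 to 1.41) and in the fetal immature epithelium-like E8 (1.18, 1.05 to 1.32), and it included 1 in E0, E5 and E6. Nags was at 37.2 and 42.5 CPM in E4 (1.14, 0.978 to 1.34), at 37.7 and 55.0 CPM in E3 (1.46, 1.17 to 1.81) and at 39.3 and 33.5 CPM in E10 (0.852, 0.594 to 1.23). Of these 3 sub-clusters, the interval for Nags stayed above 1 in E3 alone.

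The make-up of the epithelium enters the pooled ratios. Over the 7 low-HOX sub-clusters pooled, the ratio was 30.2 for Cps1 (18.7 to 52.2), 2.36 for Otc (2.17 to 2.57), 1.71 for Oat (1.67 to 1.76) and 1.19 for Nags (1.08 to 1.31). By these ratios 3 enzymes were at least 1.5-fold higher. The share of all genes past that fold was not computed for this pool, where the median log2 ratio over all genes was 0.085. In the other 6 sub-clusters (1182 control and 148 maternal obesity cells) the control library gave 2 Cps1 UMIs and the other 0. Otc there had 19 and 21 UMIs (0.860 and 5.29 CPM; ratio 6.16, 3.15 to 12.1), but 12 of the 21 were in 2 cells of E15. Oat was there at 126 and 158 CPM. Equal weight was also given to the 9 sub-clusters that had 30 or more cells from both libraries, with 0.5 UMI added to each sum. The average ratio was then 1.56 for Otc, 1.25 for Oat and 0.942 for Nags. That of Cps1 was 7.59, a value that depends on the added 0.5, since 5 of the 9 sub-clusters had at most 3 Cps1 UMIs in either library. Also within E4 the marker genes differed between the libraries: the summed posterior HOX level was 5.22 and 0.540 CPM (32 and 7 UMIs), the proximal absorptive list summed to 349 and 605 CPM, and the distal surface list to 250 and 183 CPM. Their part in the enzyme differences within E4 was not tested.

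**Figure D2:**
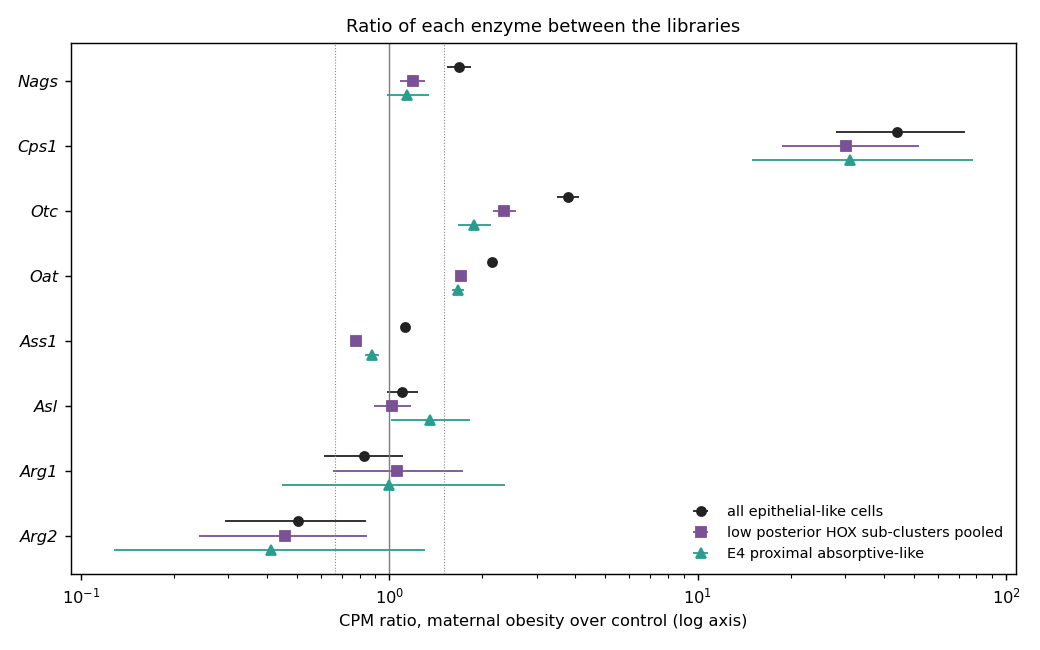
Ratio of CPM in maternal obesity over control (horizontal, log axis) for the 8 enzymes (rows) in all epithelial-like cells, in the 7 low-HOX sub-clusters pooled and in E4, with exact conditional 95% binomial intervals as bars, and dotted lines at 1.5-fold either way. The ratio of Nags moves from 1.68 to 1.19 and that of Ass1 from 1.13 to 0.780 when only the low-HOX sub-clusters are pooled, and that of Cps1 from 44.1 to 30.2.

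Shares of single cells with a UMI were compared at equal depth. After every cell was thinned to 3000 UMIs, 0.135% of control epithelial-like cells (0.0279 to 0.395) and 3.79% of maternal obesity ones (2.78 to 5.02) had a Cps1 UMI. Without thinning the shares were 0.726% and 14.8%. In E4 the thinned share was 0 of 178 control cells, which allows up to 1.69%, and 7.64% in maternal obesity. For Otc the thinned shares over all epithelial-like cells were 3.93% (3.16 to 4.82) and 11.9% (10.2 to 13.9), and 15.5% and 44.4% without thinning. In fibroblast-like cells, which should lack both enzymes, thinned shares were 0 of 252 cells for both in control (up to 1.19%), and 0.249% for Cps1 and 0.998% for Otc in maternal obesity. The median depth of those fibroblast-like cells before thinning was 7238 and 7765 UMIs. In control the limit of 1.19% is too wide to tell the epithelial Cps1 share from background. Of the 19 control Cps1 UMIs in epithelium, E4 held 7 and E3 held 6. In maternal obesity the epithelial Cps1 share lies above that of fibroblast-like cells.

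Over the whole epithelium, cells with Cps1 mostly had Otc. In maternal obesity epithelium 170 of 187 cells with Cps1 (90.9%) had an Otc UMI, against 36.3% of cells without Cps1, and at equal depth the shares were 37.0% and 10.9%. Before thinning the cells with Cps1 were deeper, with a median of 39330 against 22650 UMIs. Within sub-clusters at equal depth, the maternal obesity shares were 12 of 22 (54.5%, 32.2 to 75.6) against 19.9% (15.3 to 25.2) in E4. They were 26.7% (7.79 to 55.1) against 21.5% in E3 and 1 of 5 against 20.4% in E10, with no difference beyond counting error. In control 13 of 17 cells with Cps1 had Otc. UMIs of Nags, Cps1, Otc and Oat together were seen in 9 control (0.385%) and 129 maternal obesity cells (10.2%), and within E4 in 5 (2.72%) and 92 (31.7%), without thinning. The median depth of E4 cells was 30253 and 38627 UMIs, and deeper cells show more genes together.

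Before thinning, cells with a posterior HOX UMI carried Otc and Cps1 less often in either library. Without thinning, Otc was seen in 3.13% of the 1021 control cells with such a UMI (2.15 to 4.40) and in 25.02% of the 1319 without (22.7 to 27.4). In maternal obesity it was seen in 13.9% of 137 cells with (8.56 to 20.8) and 48.1% of 1125 without (45.1 to 51.1). At equal depth the cells were split again by HOX UMIs left after thinning, so the sets differ from those above. The Otc shares with and without a HOX UMI were then 0.619% of 646 and 5.29% of 1570 cells in control. In maternal obesity they were 3.28% of 61 (0.400 to 11.3) and 12.4% of 1154 cells (10.5 to 14.4), intervals that overlapped. Cps1 was seen, without thinning, in 1 of the 1021 and 16 of the 1319 control cells, and in 3 of the 137 and 184 of the 1125 maternal obesity cells. Median depth with and without a HOX UMI was 16789 and 17678 UMIs in control and 25449 and 24551 in maternal obesity. The cells without a HOX UMI are not thereby free of HOX RNA, and they were deeper in maternal obesity. Of the 1570 control cells without a HOX UMI after thinning, 0.191% had a Cps1 UMI (0.0394 to 0.557). In maternal obesity it was 3.99% of 1154 such cells (2.93 to 5.28). With a HOX UMI after thinning, Cps1 was seen in 0 of 646 control cells (interval up to 0.569%). In maternal obesity it was 0 of 61 (up to 5.87%), so the Cps1 intervals overlapped in both libraries.

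Ass1, the enzyme that takes up citrulline, went another way. Over all epithelial-like cells it was at 281 CPM in control against 316 CPM, a ratio of 1.13 (1.10 to 1.15). Within sub-clusters the order turned round: it was higher in 0 of the 9 weighted equally, with an average ratio of 0.808, and the low-HOX sub-clusters pooled gave 441 and 344 CPM (0.780, 0.760 to 0.800). Its highest levels were in the fetal immature epithelium-like sub-clusters, where Cps1 was at or near 0: E8, led by Rbp4 and Afp, at 681 and 596 CPM (0.876, 0.829 to 0.926), and E6, led by Shh, at 568 and 435 CPM (0.767, 0.729 to 0.807). In E4 it was at 341 and 299 CPM (0.878, 0.832 to 0.926). In E7 it was at 274 and 151 CPM (0.553, 0.489 to 0.625). The lowest Ass1 among the named sub-clusters was in the distal surface-like E11, at 51.3 CPM in 312 control cells and 23.0 CPM (10 UMIs) in 18 maternal obesity cells. The highest Ass1 was thus in other epithelial cells than the highest Cps1 and Otc in both libraries.

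Asl, the next enzyme, was nearly even across the epithelium. It was at 12.9 and 14.2 CPM, a ratio of 1.10 (0.980 to 1.24), and at 10.4 and 14.1 CPM in E4 (1.35, 1.01 to 1.83). In the 7 low-HOX sub-clusters its level lay between 10.4 and 18.2 CPM in control and between 10.6 and 19.4 CPM in maternal obesity.

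Neither arginase was abundant in E3, E4 or E10. Arg1 over all epithelial-like cells was at 2.46 CPM (121 UMIs) and 2.04 CPM (78 UMIs), a ratio of 0.827 (0.614 to 1.11), and Arg2 at 1.14 CPM (56 UMIs) and 0.574 CPM (22 UMIs), a ratio of 0.504 (0.293 to 0.838). The call for Arg2 was lost under 2 other settings, where its ratio was 0.912 after thinning and 0.879 with sub-clusters weighted equally. In E4 Arg2 had 8 and 7 UMIs. Arg1 stood out in the enteroendocrine-like sub-cluster E15, which makes gut hormones, with 31 UMIs in each library, or 42.1 CPM in 49 control cells and 74.3 CPM in 18 maternal obesity cells (ratio 1.77, 1.04 to 3.00). Without thinning, 20 of 49 and 10 of 18 of these cells had an Arg1 UMI, against 4.15% and 3.41% of all epithelial-like cells. At equal depth it was 8 of 46 and 4 of 18, against 0.993% and 0.658%.

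**Figure D3:**
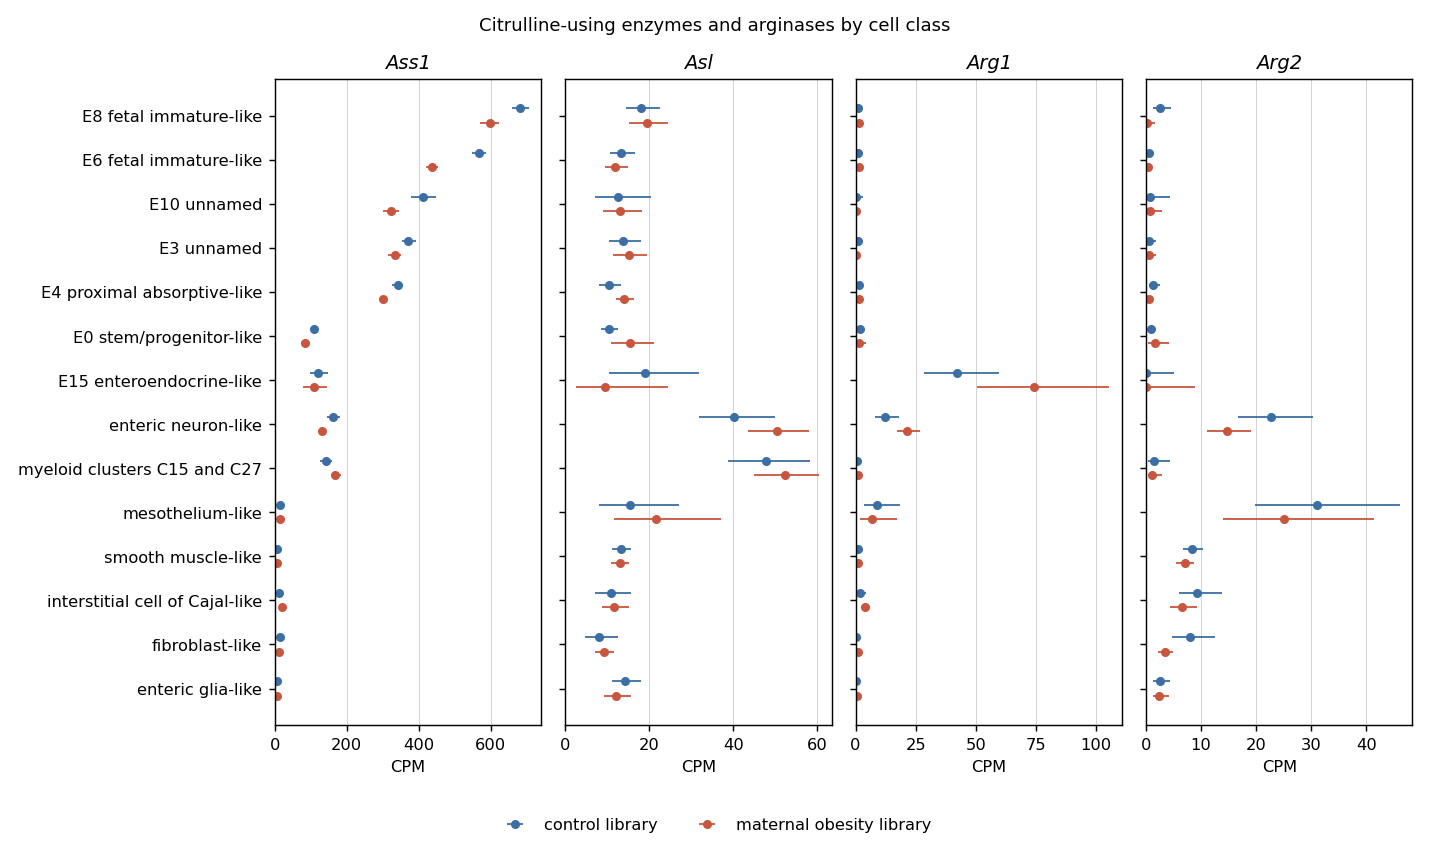
Levels in CPM (horizontal axes, linear) of Ass1, Asl, Arg1 and Arg2 in selected epithelial sub-clusters and other cell classes (rows), with 1 point per library and bars for the exact 95% Poisson interval. Of the classes plotted, Ass1 is highest in E8 (681 and 596 CPM), Asl in the pooled myeloid clusters C15 and C27 and in enteric neuron-like cells, Arg1 in E15 and Arg2 in mesothelium-like and enteric neuron-like cells.

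Outside the epithelium, Ass1 and Asl were seen in neurons, mast cells and myeloid cells, while Cps1 and Otc were scarce. The arginases were seen in neurons and in some other classes. Monocyte/granulocyte-like cells (48 control, 32 maternal obesity) had Ass1 at 89.4 and 61.3 CPM (20 and 8 UMIs). Their Asl was at 49.2 and 45.9 CPM (11 and 6 UMIs). Endothelium-like cells had 3 and 8 UMIs of Arg1 (7.19 and 21.8 CPM). Fibroblast-like cells had 1 Cps1 UMI in control and 18 in maternal obesity, and 0 and 17 Otc UMIs. Smooth muscle-like cells had 1 and 12 Cps1 UMIs and 3 and 29 Otc UMIs. The ratio of Cps1 was 5.29 in fibroblast-like cells (0.836 to 220), an interval that includes 1. In smooth muscle-like cells the ratio of Cps1 was 12.3 (1.81 to 524) and that of Otc was 9.87 (3.06 to 50.6). Over all named non-epithelial cells pooled, Cps1 had 3 and 48 UMIs, a ratio of 9.93. Otc had 9 and 115 UMIs there, a ratio of 7.93 (4.03 to 17.8). The intervals of both pooled ratios stayed above 1. The part of free RNA in these UMIs was not tested. Enteric neuron-like cells (257 control, 372 maternal obesity) had Ass1 at 163 and 132 CPM (ratio 0.812, 0.705 to 0.935) and Asl at 40.1 and 50.4 CPM (1.26, 0.966 to 1.65), with 0 and 2 UMIs of Cps1 and 0 and 3 of Otc. They also had Arg1 at 12.4 and 21.5 CPM (1.73, 1.10 to 2.83) and Arg2 at 22.8 and 14.7 CPM (0.648, 0.431 to 0.977). Arg2 was also seen in mesothelium-like cells, which line the outer gut wall, at 31.0 and 25.04 CPM (0.809, 0.395 to 1.61), and in smooth muscle-like cells at 8.42 and 7.03 CPM (0.835, 0.608 to 1.14). Oat was found more widely, at 115 and 98.6 CPM in smooth muscle-like cells and 110 and 136 CPM in fibroblast-like cells.

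In neurons Ass1 was seen more often in cells with Nos1, the neuronal nitric oxide synthase gene, a pair examined after the levels had been seen. In control 16 of 26 cells with a Nos1 UMI (61.5%, 40.6 to 79.8) had Ass1, against 52 of 231 without (22.5%, 17.3 to 28.4). In maternal obesity it was 26 of 41 (63.4%, 46.9 to 77.9) against 80 of 331 (24.2%, 19.7 to 29.2). Asl was seen in 42.3% of cells with and 19.9% without Nos1 in control, and in 53.7% and 28.7% in maternal obesity, without thinning. Cells with Nos1 were deeper (median 11926 against 6890 UMIs in control, 13677 against 8809 in maternal obesity). After thinning the Ass1 shares in control were 4 of 6 (22.3% to 95.7%) against 17.0% (12.0 to 23.1), intervals that overlapped. In maternal obesity they were 9 of 15 (60.0%, 32.3 to 83.7) against 16.7% (12.8 to 21.2), which did not overlap. After thinning, Asl was seen in 3 of 6 cells with Nos1 (11.8% to 88.2%) against 12.9% (8.52 to 18.4) in control. In maternal obesity it was 4 of 15 (7.79% to 55.1%) against 11.1% (7.90 to 15.05), so the intervals for Asl overlapped in both libraries. Nos1 itself was at 19.8 and 19.9 CPM in neurons of the libraries. Of neurons with a UMI of Chat, the acetylcholine-making enzyme gene, 6 of 19 had Ass1 in control and 12 of 30 in maternal obesity, against 26.1% and 27.5% of the others.

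In the myeloid cells, 2 clusters had the macrophage list as their best marker list and were read apart after the levels had been seen. Cluster C15, led by Fcnb, Lyz2 and the inflammatory cytokine gene Il1b, had a UMI of the macrophage gene C1qa in only 29.7% of control and 34.1% of maternal obesity cells, so it is called by its number. It had Ass1 at 200 CPM in control (177 to 224, 192 cells) and 226 CPM in maternal obesity (207 to 245, 279 cells). Cluster C27, macrophage-like and led by F13a1, Lyve1 and the complement genes C1qb and C1qc, had 3.35 CPM in control (0.406 to 12.1, 66 cells) and 15.01 CPM in maternal obesity (8.20 to 25.2, 118 cells). In Asl the clusters lay closer, at 54.5 and 61.8 CPM in C15 and 31.8 and 26.8 CPM in C27. Nos2, the inducible nitric oxide synthase gene, was scarce, with 14 and 11 UMIs in both clusters together, and Arg1, often used as a macrophage activation gene, had 1 and 3 UMIs. Mast cell-like cells, of which there were 20 in control and 27 in maternal obesity, had Ass1 at 178 and 76.6 CPM (24 and 18 UMIs; 0.429, 0.220 to 0.825) and Asl at 52.0 and 68.1 CPM (7 and 16 UMIs).

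**Figure D4:**
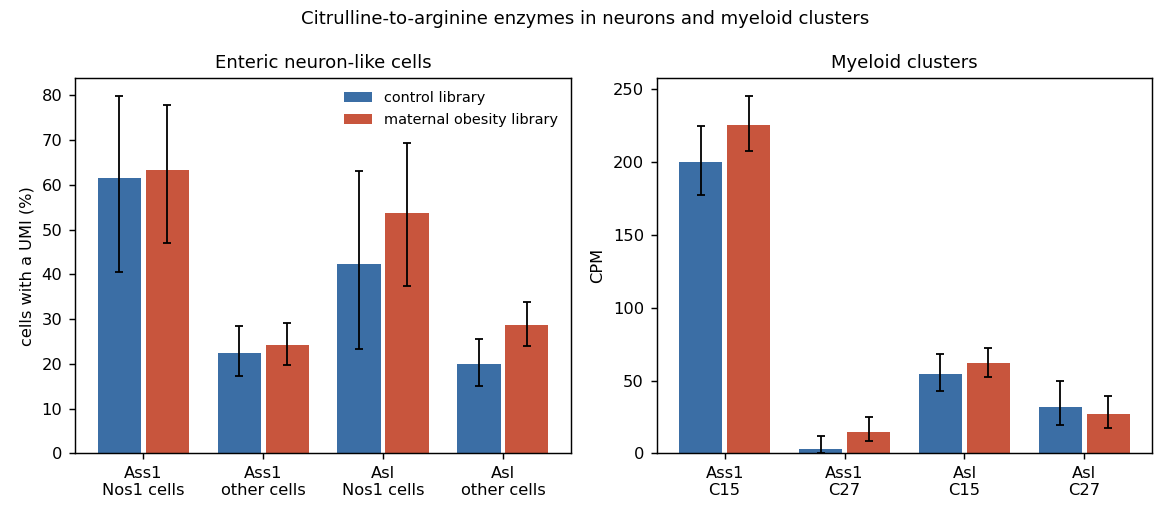
Left, share of enteric neuron-like cells with an Ass1 or Asl UMI (vertical axis, percent, without thinning) among cells with and without a Nos1 UMI, with exact 95% binomial intervals. Right, Ass1 and Asl levels (CPM) in myeloid clusters C15 and C27 with exact 95% Poisson intervals; Ass1 is seen in 61.5% and 63.4% of cells with Nos1, and its level is 200 and 226 CPM in C15 against 3.35 and 15.01 CPM in C27.

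The genes around the route were read over all epithelial-like cells against the same background of 11.8% in each direction. Of the 14 measured carriers and arginine transporters 5 were at least 1.5-fold higher and 3 lower. Slc25a15, the mitochondrial ornithine carrier, was at 7.57 and 15.1 CPM (2.0, 1.75 to 2.28), and in E4 at 6.68 and 21.6 CPM (3.23, 2.32 to 4.60). Slc25a13, the mitochondrial aspartate-glutamate carrier citrin, was at 7.81 and 17.0 CPM (2.18, 1.92 to 2.48), and in E4 its ratio was 1.71 (1.31 to 2.25). Slc7a9, a subunit of the brush border carrier of cystine and basic amino acids that also stands in the proximal absorptive list, was at 0.875 and 9.27 CPM (10.6, 7.70 to 14.9). Slc6a14, a broad amino acid importer, went the other way at 19.7 and 4.62 CPM (0.235, 0.199 to 0.276). Both mitochondrial carriers were thus at least 1.5-fold higher in all epithelial-like cells and in E4, whereas Slc7a1, a widely used arginine importer, was at 26.3 and 25.8 CPM.

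Upstream, in the synthesis of glutamine, proline and ornithine, 0 of 13 measured genes were at least 1.5-fold higher and 4 were lower. Glutamate dehydrogenase (Glud1), which links glutamate to the citric acid cycle, was at 373 and 456 CPM (1.22, 1.199 to 1.25), but at 600 and 531 CPM in E4. Glutamine synthetase (Glul), which makes glutamine from glutamate, was at 423 and 296 CPM (0.698, 0.683 to 0.715) and in E4 at 268 and 196 CPM. Pycr1, which encodes a reductase that forms proline, was at 12.2 and 7.10 CPM (0.581, 0.502 to 0.672). In E4 its interval included 1 (0.575 to 1.60). Aldh18a1, which encodes the synthase that leads from glutamate to ornithine and is named here after its value was seen, had 8 UMIs in control against 3.

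Among genes that use arginine for nitric oxide and creatine, 1 of 8 was higher and 0 lower. This was Agmat, which encodes agmatinase and opens agmatine to polyamines, at 3.32 and 14.0 CPM (4.23, 3.55 to 5.08). In the polyamine list 2 of 12 were higher and 2 lower. Sat1, which acetylates polyamines, was at 750 and 470 CPM (0.626, 0.615 to 0.638), and Paox, which oxidises the acetylated forms, at 6.35 and 11.1 CPM (1.75, 1.51 to 2.03). Of the 7 genes around carbamoyl phosphate and pyrimidine synthesis 1 was higher and 1 lower. Cad, which makes carbamoyl phosphate in the cytosol for pyrimidines, was at 23.6 and 29.5 CPM (1.25, 1.15 to 1.36). Its interval lies far below that of its mitochondrial counterpart Cps1.

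Of 21 measured regulators of urea cycle genes 3 were at least 1.5-fold higher and 4 lower. Gata5, a GATA factor of the gut, was at 0.488 and 4.39 CPM (8.98, 5.83 to 14.4), and in E4 at 0.489 and 7.33 CPM (3 and 95 UMIs). Gata6, by contrast, was at 32.5 and 35.3 CPM, and Hnf4a, a main factor of absorptive cells, at 93.3 and 102 CPM (1.09, 1.05 to 1.14). Both were picked out after their values had been seen, as the factors whose letters lie upstream of Cps1. Foxa3 was at 135 and 60.9 CPM (0.451, 0.430 to 0.473) and Ppargc1a at 11.5 and 4.46 CPM (0.390, 0.326 to 0.463), although in E4 Ppargc1a had 11 and 40 UMIs (1.72, 0.867 to 3.72). In the liver list, checked because liver is rich in the same enzymes, 2 of 8 measured genes were higher and 2 lower, and the defining marker Alb had 2 UMIs in control epithelial-like cells and none in those of maternal obesity.

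The level of each enzyme was also compared with 10470 genes over 22 profiles, each 1 sub-cluster in 1 library with at least 30 cells. These profiles share the 2 libraries and their depth, so the correlations are descriptions. Closest to Cps1 were Nid2 (Pearson's r 0.96), which encodes the basement membrane protein nidogen-2, Ccl25 (0.94), Aadac (0.92), Capn3 (0.91), Gata5 (0.89), Tbc1d21 (0.87), Slc28a2 (0.86) and the apolipoprotein gene Apoc3 (0.86). Closest to Otc were Sema3a (0.96), Mgst1 (0.95) and Adgrg7 (0.94), and closest to Oat were Krt15 (0.95), Adgrg7 (0.94) and Arhgap9 (0.93). Nags was most like Akr7a3 (0.97), Gjb2 (0.95) and Rasl12 (0.94), and Ass1 most like Homer3 (0.97), Galk1 (0.96) and Rasl11b (0.95). Arg1 was most like the neuronal tubulin gene Tubb3 (0.96), Cryba2 (0.95) and Nefm (0.94). In these profiles Arg1 was at 42.1 CPM in E15 of control and at most 3.96 CPM elsewhere, so its correlations rest mainly on that enteroendocrine-like profile. The closest to Asl were Slc12a7 (0.80), Abcc5 (0.76) and Plekha1 (0.73). Arg2 had too few UMIs to be ranked. Among the enzymes Otc and Oat were closest (0.91), then Oat and Nags (0.88), Otc and Nags (0.84) and Cps1 and Otc (0.77). Ass1 and Cps1 stood at 0.23.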

How the data were processed

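Both libraries were droplet single-cell RNA-seq of E19.5 rat colon. The authors deposited whole-number UMI counts for each gene and barcode, without normalisation. Per the file headers they came from cellranger 6.1.2, whereas Cell Ranger 2.1.1 stands in the submitters' processing notes, so the version is not settled. A genome build was not given in the sources used here. Counts of identifiers sharing a symbol were added (30400 identifiers). Kept barcodes had 500 or more genes and no more than 20% mitochondrial UMIs, and Scrublet calls were removed (0.8% expected per 1000 barcodes). In scanpy 1.11.5, counts were scaled to 10000 per cell and logged, and 2000 variable genes without the 8 enzymes, 30 components and 15 neighbours gave Leiden clusters at resolution 1. Classes took their names from marker lists by a rule set after the clusters were seen. The enzymes and lists were chosen with earlier results of these data known. Named genes were all 8 enzymes and, per list, the 3 with the highest epithelial CPM and up to 4 others whose interval lay farthest from 1, of which some are not reported here. Pearson likeness used log2(CPM + 5) and genes with at least 100 UMIs, naming the 8 genes closest to Cps1 and the 3 closest to each other enzyme. Intervals are exact at 95% (Poisson, Clopper-Pearson, conditional binomial), and the limit for 0 is 3 counts. Median log2 ratios added 0.5 UMI to both sums. The ratio calculation was tested on simulated counts. Alternatives covered filters, doublets, totals, thinning, gating, clustering and sub-cluster weighting.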

Additional observations from a re-analysis of the deposited data

Results flagged for a closer look

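The ratios of 2 enzymes pointed in opposite directions in different cell classes, with intervals on either side of 1. These differences between classes were not tested. Oat was 1.86-fold higher in maternal obesity in epithelial sub-cluster E3 but stood at a ratio of 0.590 in lymphoid-like cells. Ass1 was 1.57-fold higher in cells like interstitial cells of Cajal, the pacemakers of the gut wall, but stood at a ratio of 0.553 in the defensin/Paneth-like sub-cluster E7.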

How the results depend on the processing

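No paired analysis was possible because each group has 1 library and the replicate numbers differ (1 and 2). Of 125 values recomputed under alternatives, 94 stayed, 30 moved and 1 reversed. Staying meant within the counting interval of the reported value or, for a number of enzymes, within 1.5 times it. A ratio could count as reversed only where the reported one was past 1.5-fold, so those of Ass1, Asl and Arg1 could not. Weighting sub-clusters equally gave ratios of 7.59 for Cps1, 1.56 for Otc, 1.25 for Oat, 0.879 for Arg2 and 0.942 for Nags. That of Nags was the one value counted as reversed, and 2 enzymes were at least 1.5-fold higher and 0 lower. Cells thinned to 3000 UMIs gave 115 for Cps1 (interval 19.9 to 4610), 2.28 for Oat, 0.912 for Arg2 (0.0155 to 17.5) and 1.895 for Nags, with 0 enzymes lower. Oat stood at 2.09 with a mitochondrial limit of 10%, 2.06 in cells with at least 5 epithelial markers and 1.99 at resolution 2, where 2 enzymes were lower. Low-HOX sub-clusters alone, an alternative chosen after seeing the data like those on low-UMI clusters and mixed sub-clusters, gave 2.36 for Otc, 1.71 for Oat and 1.19 for Nags, with 3 enzymes higher against 4. Thinning to 1500 UMIs gave Cps1 shares of 0% in control and 1.86% in maternal obesity, and Otc shares of 1.57% and 6.89%. Cps1 in control rests on 19 UMIs and Arg2 on 56 and 22, so their ratios are imprecise. Ass1, with no call, ranged from 0.780 to 1.24, and Arg1, also with no call, from 0.632 to 1.16, so both crossed 1. The number of enzymes at least 1.5-fold higher ranged from 2 to 4 over the alternatives run. The share of all genes past that fold was not recomputed under these alternatives.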
